A study of Mus musculus with 8 samples.

Results

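The genes described here set up and run the inhibitory nerve cell: 6 transcription factor genes of the forebrain interneuron lineage (Dlx1, Dlx2, Dlx5, Dlx6, Lhx6 and Sox6) and 3 genes that make and package the transmitter GABA (Gad1, Gad2 and Slc32a1). Every probe that was not a control and whose accession RefSeq ties to one of these symbols was taken, which gave 12 probes for the 9 genes, out of 39429 probes on the array. The 8 arrays measured total RNA of dissociated mouse hippocampal neurons that had grown for 10 days, received a lentivirus and were kept for a further 6 days. In 4 samples the virus carried Flag-Nr4a1, a tagged form of the activity-induced orphan nuclear receptor Nr4a1. In 4 control samples the virus carried GFP. The strain and age of the mice, the promoter that drives the transgenes and whether the replicates came from separate cultures are not given in the sources used here, so the p-values speak only to variation among these 8 samples, part or all of which may be technical.

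In the ventral forebrain of the mouse embryo, the homeodomain proteins DLX1 and DLX2 act early in interneuron precursors and switch on Dlx5 and Dlx6. In the branch that comes from the medial ganglionic eminence, LHX6 acts after NKX2-1, and SOX6 acts downstream of LHX6 as somatostatin and parvalbumin cells settle and mature. GAD67 (Gad1) and GAD65 (Gad2) make GABA from glutamate, and the vesicular transporter VGAT (Slc32a1) loads it into synaptic vesicles.

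Cy5 marked the RNA of a culture and Cy3 a common mouse reference RNA hybridised beside it, so a level below is the log2 ratio of culture over reference for 1 probe, and levels of different probes are not comparable. Each difference is the Nr4a1-labelled level less the GFP-labelled level over the 4 pairs that the labels give. They were tested with limma with the pair as a block, and a probe was called at an adjusted p under 0.05 over all 25780 probes tested (Benjamini-Hochberg). Each group has 4 arrays, and the error given with a difference is its standard error from limma. Of all probes tested, 12.2% were called higher and 11.7% lower in Nr4a1-labelled arrays, 23.8% in all. The GFP-labelled arrays all lay on slide 1 and the Nr4a1-labelled arrays on slides 2 and 3, so no slide held both groups and slide and group cannot be told apart. When slide was added to the paired model as a random block, 9 probes were called higher and 5 lower over the whole array, and no gene of this set was among them. That setting cannot tell slide from group either, so a call lost there says nothing particular to its gene. In the Cy3 channel alone, which held the same reference RNA on every array, 3161 probes (12.3%) differed between the labelled groups at the same threshold. The array's own Nr4a1 probe did not separate the groups (0.30 ± 0.15, limma adjusted p = 0.191), so the arrays are named by their labels.

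The promoters of the genes that were called are shown first, because the delivered protein binds DNA. They run from 250 bases before to 50 bases after a RefSeq start site (GRCm38.p6). Capitals mark AAAGGTCA, the NBRE motif that NR4A receptors bind as monomers, searched on both strands (TGACCTTT on the other). The Dlx1 window lies on the plus strand at chr2:71529195-71529494, the Dlx2 window on the minus strand at chr2:71546705-71547004, and the Sox6 window on the minus strand at chr7:116030998-116031297. Sox6 has 6 windows, and only the second, the only Sox6 window with the motif, is shown.
Dlx1: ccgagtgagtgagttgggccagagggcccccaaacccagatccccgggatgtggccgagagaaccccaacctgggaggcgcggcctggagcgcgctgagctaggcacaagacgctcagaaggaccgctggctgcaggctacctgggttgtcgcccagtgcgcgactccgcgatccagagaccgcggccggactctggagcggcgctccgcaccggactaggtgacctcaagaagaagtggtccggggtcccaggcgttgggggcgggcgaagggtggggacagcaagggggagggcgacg
Dlx2: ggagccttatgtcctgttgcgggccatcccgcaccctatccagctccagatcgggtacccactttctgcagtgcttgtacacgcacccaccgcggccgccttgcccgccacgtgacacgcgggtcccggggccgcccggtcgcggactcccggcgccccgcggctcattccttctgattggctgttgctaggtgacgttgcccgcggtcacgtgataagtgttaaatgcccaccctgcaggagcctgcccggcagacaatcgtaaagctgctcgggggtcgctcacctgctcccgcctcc
Sox6: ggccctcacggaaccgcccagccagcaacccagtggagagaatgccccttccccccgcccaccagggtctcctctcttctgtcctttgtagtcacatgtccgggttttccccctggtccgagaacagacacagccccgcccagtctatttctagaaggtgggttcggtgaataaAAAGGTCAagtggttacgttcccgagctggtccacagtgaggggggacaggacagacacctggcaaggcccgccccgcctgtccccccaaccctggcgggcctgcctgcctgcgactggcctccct

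RefSeq windows were at hand for 7 of the 9 genes, 14 windows in all. The NBRE letters occurred in 1 of these 14, the Sox6 window shown, 76 bases before the start site, and in 1.51% of all 32851 promoter windows. The homeodomain core TAATTA, which reads the same on both strands, was in 0 of the 14 and in 5.29% of all windows. The Dlx1 and Dlx2 windows hold 69.3% and 66.3% G and C, against a median of 52.7% over all windows. A match describes letters only, and a window without one shows only that these letters are not in it.

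Dlx1, Dlx2 and Sox6 were higher in Nr4a1-labelled arrays, by 1.22-fold to 1.33-fold. Dlx5, Lhx6 and the genes for GABA synthesis and packaging were not called in either direction. Dlx6 could not be tested. With each gene taken by its brightest probe, 3 of the 8 tested genes were called higher, 0 lower and 5 not called. At an unadjusted p under 0.05 in limma 4 of the 8 passed, of which 1 was lower, Slc32a1. Over the whole array, 9326 of 25780 probes passed that unadjusted threshold in either direction. Among all genes and unnamed features taken by their brightest probe, 12.7% were called higher and 11.4% lower. The median difference of the 8 genes was 0.05, and that of all such features was -0.0035. Because the RNA is of whole cultures, more cells of a type and more RNA per cell cannot be told apart.

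Dlx1 (A_52_P464831) had log2 ratios of 0.21, 0.45, 0.57 and 0.41 on GFP-labelled replicates 1 to 4 and of 0.80, 0.87, 0.95 and 0.65 on Nr4a1-labelled replicates 1 to 4. Every Nr4a1-labelled array stood above every GFP-labelled array, as was the case for 11.9% of all probes, with 11.8% separated the other way. The difference was 0.41 ± 0.07, or 1.33-fold (limma adjusted p = 0.00221). Its 95% interval ran from 0.25 to 0.56, and all 4 pairs were higher.

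Dlx2 (A_51_P480202), the neighbour of Dlx1 in a convergent pair on chromosome 2, was higher as well. Its ratios were -0.73, -0.50, -0.47 and -0.79 on the GFP-labelled arrays and -0.29, -0.29, -0.19 and -0.38 on the Nr4a1-labelled arrays. The groups did not overlap here either, and the difference was 0.33 ± 0.06, or 1.26-fold (limma adjusted p = 0.00398), higher in 4 of 4 pairs. In batch 1, which holds replicates 1 to 3, the difference was 0.46 for Dlx1 and 0.31 for Dlx2, both called, and in batch 2, which is the pair of replicate 4, it was 0.24 and 0.41. Both calls were lost with slide as a random block (limma adjusted p = 1.00 for each) and when spots with a non-uniform background were kept (0.298 for Dlx1 and 0.113 for Dlx2, limma adjusted p), while the differences stayed at 0.29 or more.

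The antisense transcript between these 2 genes, Dlx1as, was not tested, its probes being well above background on at most 2 of 8 arrays. Across the 8 arrays Dlx1 and Dlx2 correlated at a Pearson r of 0.93, and at 0.75 once each group's mean was removed. Both probes come from the same arrays and share the group difference, so these values are descriptions.

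Dlx5 and Dlx6 form the sister pair on chromosome 6. Dlx5 (A_51_P261051) read 0.92, 1.04, 0.90 and 0.81 on the GFP-labelled arrays and 0.77, 0.59, 0.90 and 0.77 on the Nr4a1-labelled arrays. All 4 pairs were lower and the groups overlapped, with a difference of -0.16 ± 0.08 (95% interval -0.34 to 0.02; limma adjusted p = 0.175). Without replicate 2 it was -0.06. Dlx6 (A_52_P556908) was well above background on no GFP-labelled array and on 1 Nr4a1-labelled array, with Cy5 intensities of 44 to 67, and was left untested. Dlx6os1, the noncoding antisense RNA of that locus, was measured and differed by -0.08 ± 0.07 (limma adjusted p = 0.427).

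Set against each other within pairs, the Dlx1 difference exceeded the Dlx5 difference by 0.57 ± 0.28 (SD, n = 4 pairs) and the Lhx6 difference by 0.53 ± 0.15 (SD, n = 4 pairs), in 4 of 4 pairs each. An exact two-sided sign-flip permutation test gave p = 0.125 for each, the smallest p that 4 pairs allow, and 0.25 after adjustment over 6 such comparisons, which were chosen after the values were seen.

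Lhx6 marks interneurons of the medial ganglionic eminence and has 3 probes. The brightest (A_55_P2005903) read 0.41, 0.46, 0.50 and 0.32 on the GFP-labelled arrays and 0.34, 0.33, 0.26 and 0.23 on the Nr4a1-labelled arrays. All 4 pairs were lower, by 0.13 ± 0.06 on average, without passing the test (95% interval of the difference -0.26 to 0.01; limma adjusted p = 0.154). With median centring it was -0.03.

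A further Lhx6 probe (A_55_P2094158) read 2.75, 2.99, 3.13 and 2.90 against 2.89, 2.55, 2.52 and 2.79, with 3 of 4 pairs lower. Its difference was -0.25 ± 0.11 (limma adjusted p = 0.117), and without replicate 1 it was -0.38 and was called (limma adjusted p = 0.0286). The gap between the 2 tested Lhx6 probes was 0.12 ± 0.27 (SD, n = 4 pairs; exact sign-flip permutation p = 0.375). The last probe (A_55_P2094149), designed on NM_001083125, passed the background threshold on a single GFP-labelled array and was left untested.

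Sox6 (A_52_P475356) read 0.64, 1.06, 0.90 and 0.62 on the GFP-labelled arrays and 1.12, 1.21, 1.16 and 0.88 on the Nr4a1-labelled arrays. All 4 pairs were higher, but the groups overlapped, since GFP-labelled replicates 2 and 3 stood above Nr4a1-labelled replicate 4. The difference was 0.29 ± 0.07, or 1.22-fold (limma adjusted p = 0.0128). The call was lost without the pair block (limma adjusted p = 0.0705) and without replicate 1 (0.22, limma adjusted p = 0.0572). It was lost as well with slide as a random block, in the scanner software's own ratio, and when spots with a non-uniform background were kept, where the difference shrank to 0.04. The probe was dim, at Cy5 intensities of 78 to 176, and its Cy3 signal was well above background on 0 of 8 arrays, so its ratio rests on a reference signal near background. Within batch 1 it differed by 0.30 and was called, and in batch 2 by 0.26.

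**Figure D1:**
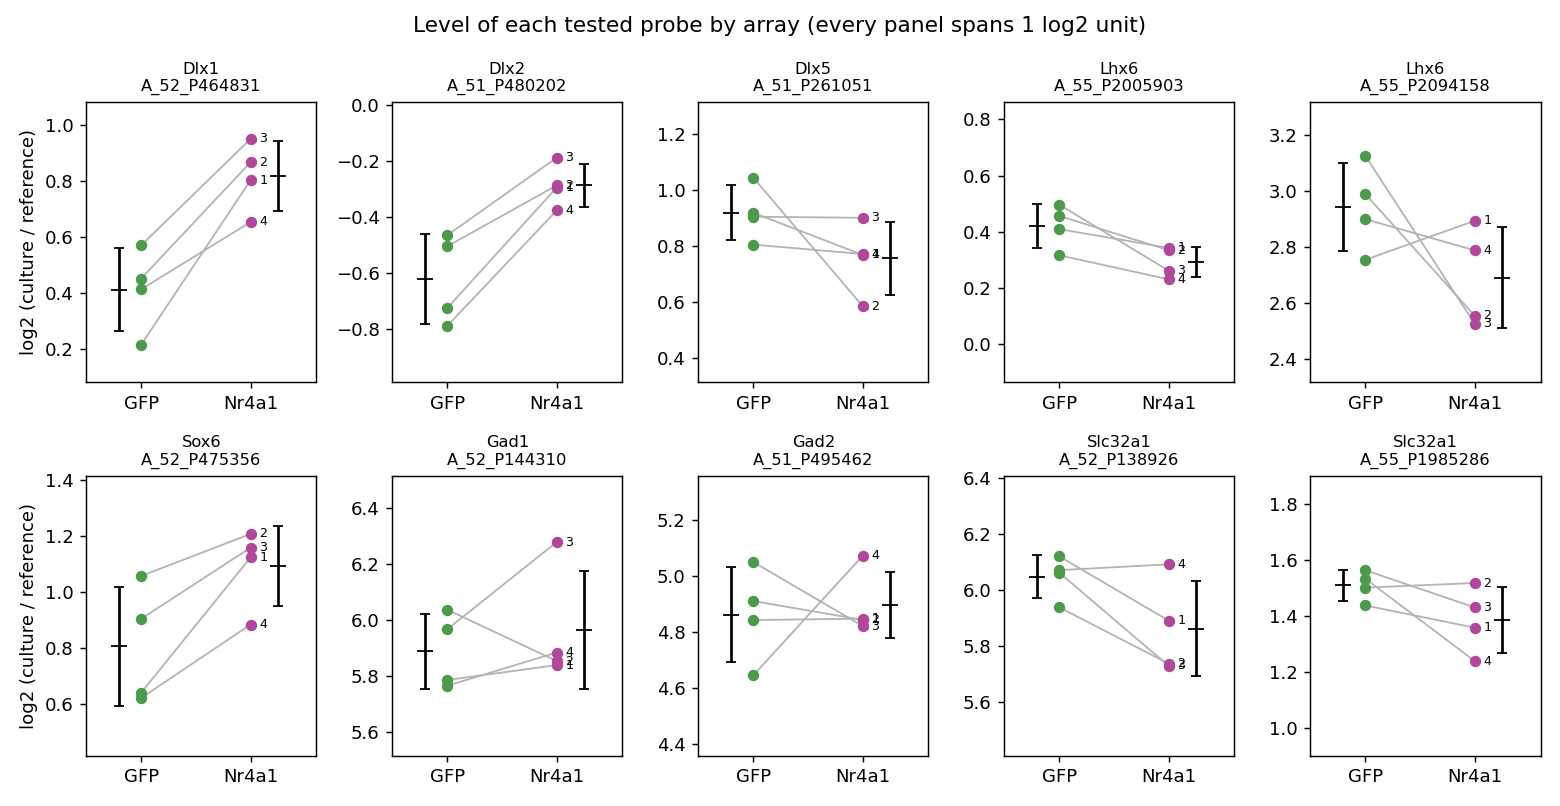
Log2 ratio of culture over reference (vertical axis, each panel spanning 1 log2 unit) for the 10 tested probes on the GFP-labelled and Nr4a1-labelled arrays. Points are arrays, numbers are replicates, grey lines join the arrays of a pair, and black bars are the mean and SD of 4 arrays. The groups are apart for Dlx1 and Dlx2 and overlap for the other 8 probes.

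The genes of GABA synthesis and packaging were not called. Gad1 (A_52_P144310) read 5.79, 6.04, 5.97 and 5.77 on the GFP-labelled arrays and 5.84, 5.86, 6.28 and 5.89 on the Nr4a1-labelled arrays. Nr4a1-labelled replicate 3 stood above the rest, and the groups overlapped. The difference was 0.08 ± 0.08, higher in 3 of 4 pairs (95% interval -0.10 to 0.25; limma adjusted p = 0.540).

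Gad2 (A_51_P495462) read 4.84, 4.91, 5.05 and 4.64 against 4.85, 4.84, 4.82 and 5.07, with 2 pairs higher and 2 lower. The difference was 0.03 ± 0.09 (95% interval -0.18 to 0.25; limma adjusted p = 0.831). Both transcripts thus read well above the reference in both groups, which is a description only, since the dyes were not swapped. Their reference signal was low, at Cy3 intensities of 65.5 to 108 for Gad1 and 97.5 to 132 for Gad2. The intervals of the differences leave room for values from -0.18 to 0.25 on the log2 scale. The sign of both differences depended on the background correction: with a normexp offset of 10 they were -0.08 for Gad1 and -0.04 for Gad2. Without replicate 3 the Gad1 difference was -0.0038, and without replicate 4 the Gad2 difference was -0.10.

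Slc32a1 has 2 probes. The brighter one (A_52_P138926), with Cy5 intensities of 33423 to 57550, read 6.12, 5.94, 6.06 and 6.07 on the GFP-labelled arrays and 5.89, 5.74, 5.73 and 6.09 on the Nr4a1-labelled arrays. Replicates 1 to 3 were lower and replicate 4 was level, at 0.02. The difference was -0.19 ± 0.07 (95% interval -0.34 to -0.03; limma adjusted p = 0.0804).

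This Slc32a1 probe was called lower without replicate 4 (-0.25, limma adjusted p = 0.0373), which leaves batch 1 alone and no array of slide 3. It was also called lower on the authors' value table (-0.19) and in Cy5 alone (-0.31, limma adjusted p = 0.0288). It was smaller and not called with median centring (-0.09), with quantile normalisation between arrays (-0.13) and in the scanner software's own ratio (-0.13). The dimmer probe (A_55_P1985286) read 1.44, 1.503, 1.56 and 1.53 against 1.36, 1.52, 1.43 and 1.24, a difference of -0.12 ± 0.07 (limma adjusted p = 0.215), and without replicate 4 it was -0.07. The probes differed from each other by -0.06 ± 0.25 (SD, n = 4 pairs; exact sign-flip permutation p = 0.625). The Gad1 difference exceeded that of the brighter Slc32a1 probe in 4 of 4 pairs, by 0.26 ± 0.28 (SD; exact sign-flip permutation p = 0.125, the smallest possible). Gad1 exceeded Gad2 in 2 of 4 pairs, by 0.04 ± 0.36 (SD; exact sign-flip permutation p = 0.875).

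The 2 colours were then read separately, each quantile-normalised between arrays. For Dlx2 the culture channel (Cy5) differed by 0.40 and the reference channel (Cy3) by 0.06, and for Sox6 by 0.29 and 0.02. For Dlx1 the values were 0.30 in Cy5 and -0.10 in Cy3, of opposite sign. For Gad1, whose reference signal was only 65.5 to 108 in intensity, Cy5 differed by 0.28 (limma adjusted p = 0.0752) and Cy3 by 0.21, and for Gad2 by 0.18 and 0.15. The brighter Slc32a1 probe differed by -0.31 in Cy5 and by -0.17 in Cy3. In Cy3 alone 0 of the 10 probes were called, against 12.3% of all probes, and 3 had an unadjusted p under 0.05 in limma (Dlx1, Gad2 and the brighter Slc32a1 probe).

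**Figure D2:**
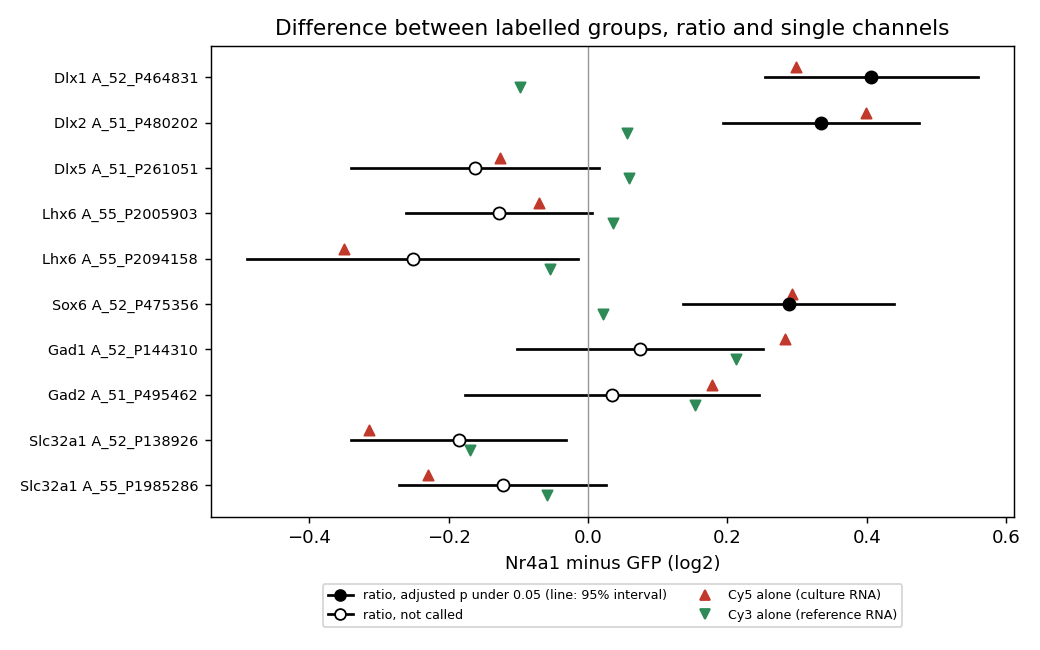
Difference between Nr4a1-labelled and GFP-labelled arrays on the log2 scale (horizontal axis) for the 10 tested probes. Circles are the ratio with its 95% interval, filled where the adjusted p was under 0.05, and triangles are Cy5 (culture RNA, pointing up) and Cy3 (reference RNA, pointing down) alone. For Gad1 and Gad2 both channels lie to the right of 0, at 0.28 and 0.21 and at 0.18 and 0.15, and the ratio lies near 0.

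The wider interneuron programme was read from lists of other genes. The share to set beside the counts of each list is 12.7% called higher and 11.4% called lower. It is taken over all genes and unnamed features by their brightest probe. Of 27 other transcription factors of the lineage, 23 were tested, 9 were higher, 4 lower and 10 not called, with a median difference of 0.12. Gsx1, a homeobox gene of ventral forebrain progenitors, rose from 0.64 to 1.41 (difference 0.77 ± 0.06, limma adjusted p = 1.63e-05). Sp8, a zinc finger gene of the dorsal lateral and caudal ganglionic eminences, rose by 0.81 ± 0.07, and its 4 Nr4a1-labelled arrays (1.26 to 1.43) lay clear of the GFP-labelled ones (0.36 to 0.63). Nr2f2 (COUP-TFII) of the caudal eminence rose by 0.87 ± 0.09, and Nr2f1 by 0.35 ± 0.06.

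Satb1, a chromatin organiser that works downstream of LHX6 in somatostatin cells, rose by 0.56 ± 0.08. Etv1 fell by 0.61 ± 0.08 and Meis2, of the lateral ganglionic eminence, by 0.41 ± 0.06. Nkx2-1 and Lhx8, which stand near Lhx6 in the medial eminence, were well above background on 0 of 8 arrays.

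Subtype markers had calls in the lower direction: of 26 tested, 0 were higher, 8 lower and 18 not called, with a median of -0.09. The share over all genes and unnamed features was 12.7% higher and 11.4% lower. At an unadjusted p under 0.05 in limma 2 were higher and 9 lower, where 9326 of all 25780 probes passed in either direction. The 8 called lower were the calcium buffer genes Calb1 (-1.25 ± 0.08) and Calb2 (-0.92 ± 0.10), the neuropeptide genes Tac2 (-0.58 ± 0.09), Cort (-0.46 ± 0.09) and Sst (-0.23 ± 0.07), the receptor genes Htr3a (-0.49 ± 0.06) and Kit (-0.51 ± 0.11), and Lamp5 (-0.26 ± 0.07). Calb1, Calb2 and Kit are also made by other hippocampal cells. The Sst call was lost in 9 of 17 other settings, among them without replicate 1 (-0.21), 2 (-0.23) or 3 (-0.21), and the Lamp5 call without replicate 2 (-0.20). Pvalb differed by -0.10 ± 0.07, Vip by 0.22 ± 0.09, Npy by 0.20 ± 0.16 and Reln by -0.10 ± 0.06, and none of these 4 was called.

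Of 15 tested genes of interneuron migration and maturation, 0 were higher, 5 lower and 10 not called, with a median of -0.15. Over all genes and unnamed features 12.7% were called higher and 11.4% lower. At an unadjusted p under 0.05 in limma 1 was higher and 6 lower, beside 9326 of all 25780 probes in either direction. The receptors for the guiding chemokine CXCL12 were among the lower ones, Ackr3 by -1.65 ± 0.06 and Cxcr4 by -0.81 ± 0.07, and so were the semaphorin receptor genes Nrp1 (-0.33 ± 0.08) and Nrp2 (-0.42 ± 0.10) and the microtubule gene Dcx (-1.28 ± 0.26). Nrp1 was not called without replicate 1 (-0.28) or 4 (-0.30), nor Nrp2 without replicate 3 (-0.32), and Dcx without replicate 3 was lower by -0.82 and called. Slc12a5 (KCC2), the chloride exporter that makes GABA inhibitory, differed by -0.17 ± 0.08 and was not called.

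GABA uptake and metabolism, the steps on either side of Gad1 and Gad2, held 4 higher, 1 lower and 10 uncalled genes among 15 tested, with a median of 0.0046. Slc6a12 (BGT1), a betaine and GABA transporter, rose by 0.61 ± 0.06, from -2.07 to -1.47. The glutamine carrier Slc38a1 rose by 0.22 ± 0.06 and the succinate semialdehyde dehydrogenase Aldh5a1 by 0.19 ± 0.06. The Slc38a1 and Aldh5a1 calls were lost in 10 of 17 other settings each, including each replicate left out (0.17 to 0.24 for Slc38a1 and 0.18 to 0.21 for Aldh5a1). The vesicle protein gene Sv2a fell by 0.27 ± 0.06, and stood at -0.23, uncalled, without replicate 1. The GABA transaminase Abat differed by -0.0078 ± 0.06 and was not called. Other DLX transcripts were not called, 0 of 3 in either direction in limma, and 1 (Dlx4, 0.18 ± 0.07) had an unadjusted p under 0.05.

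Transcription factors and transporters of glutamatergic neurons, for comparison, held 3 higher, 3 lower and 13 uncalled genes of 19 tested, with a median of -0.03. Slc17a6 (VGLUT2) rose by 0.59 ± 0.07, Emx2 by 0.38 ± 0.07 and Neurog2 by 0.36 ± 0.08. Neurod6 fell by 0.39 ± 0.07 and Bhlhe22 by 0.33 ± 0.06. In the scanner software's own ratio Neurod6 stood at 0.04 and Neurog2 at -0.0045. Over these 6 lists 37 named genes were called. With slide as a random block, which cannot tell slide from group, 0 of the 37 calls held. When spots with a non-uniform background were kept, 2 held (Calb1 and Nr2f2).

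**Figure D3:**
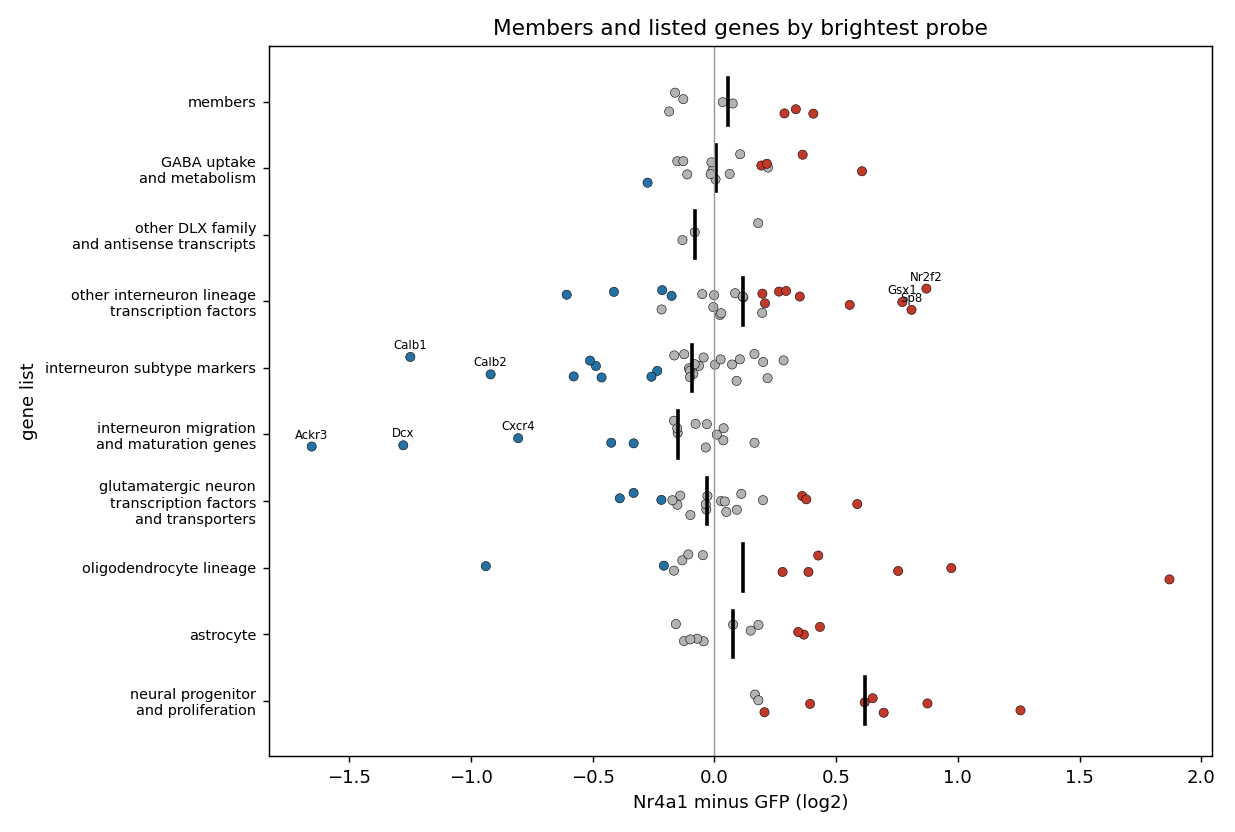
Difference between Nr4a1-labelled and GFP-labelled arrays on the log2 scale (horizontal axis) for the 8 tested members and for the tested genes of 9 lists (vertical axis), each gene by its brightest probe. Red points were called higher, blue lower and grey neither, and black bars are medians. Subtype markers and migration genes have calls only to the left of 0, 8 and 5 of them. Over all genes and unnamed features 12.7% were called higher and 11.4% lower.

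Markers of other cells that make some of these transcripts also differed between the groups. Sox6 is also expressed in oligodendrocyte precursors, and Dlx1, Dlx2 and Gsx1 in dividing forebrain progenitors. The marker counts below stand beside 12.7% called higher and 11.4% called lower over all genes and unnamed features. For the oligodendrocyte lineage, 12 markers were tested, 6 called higher and 2 called lower, and their mean log2 ratio lay between 0.77 and 0.91 on the GFP-labelled arrays and between 1.099 and 1.137 on the Nr4a1-labelled arrays. Precursor genes were among the higher ones, Pdgfra by 0.75 ± 0.06 and Gpr17 by 0.97 ± 0.07. Of 9 markers of neural progenitors and proliferation 7 were higher and 0 lower, at -1.86 to -1.59 against -1.26 to -1.097. Of 11 astrocyte markers 3 were higher and 0 lower, at 3.28 to 3.42 against 3.38 to 3.50, of 7 tested microglia markers 0 and 1, and of 5 tested endothelial and mural markers 1 and 0. Among 12 pan-neuronal markers 1 call was higher and 2 were lower, and 3 of 6 tested pyramidal neuron markers were lower. These marker lists share genes with the lists above. The lower pan-neuronal calls include Dcx, already counted among migration genes. The lower pyramidal calls include Neurod6 and Bhlhe22, already counted among glutamatergic genes. Map2, Tubb3 and Rbfox3, which define neurons, were well above background on 8 of 8 arrays. The part of these other cells in the Dlx1, Dlx2 and Sox6 differences was not tested.

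Across the 8 arrays, the named genes most like each member were found by Pearson correlation of log2 ratios, given here as a description of arrays that share the group difference. Dlx1 was followed most closely by Mir124-2hg (r = 0.98), the host gene of a neuronal microRNA, and Dlx2 by Tmtc2 (0.98). Sox6 was most like Arap2 (0.99), Lhx6 like Zfpm2 (0.98) and Slc32a1 like Cpne4 (0.99). For Gad1 the highest r was lower, at 0.90 with H2ax, and for Gad2 it was 0.96 with Patl1. Dlx5 was most like 2900026A02Rik (0.97). Among the members, Sox6 correlated with Dlx2 at 0.91 and with Dlx1 at 0.85, whereas Slc32a1 ran against all 3, at -0.87 with Sox6, -0.83 with Dlx1 and -0.77 with Dlx2. Once group means were removed the last 3 values were -0.78, -0.72 and -0.56. Gad1 and Gad2 correlated at 0.19.

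**Figure D4:**
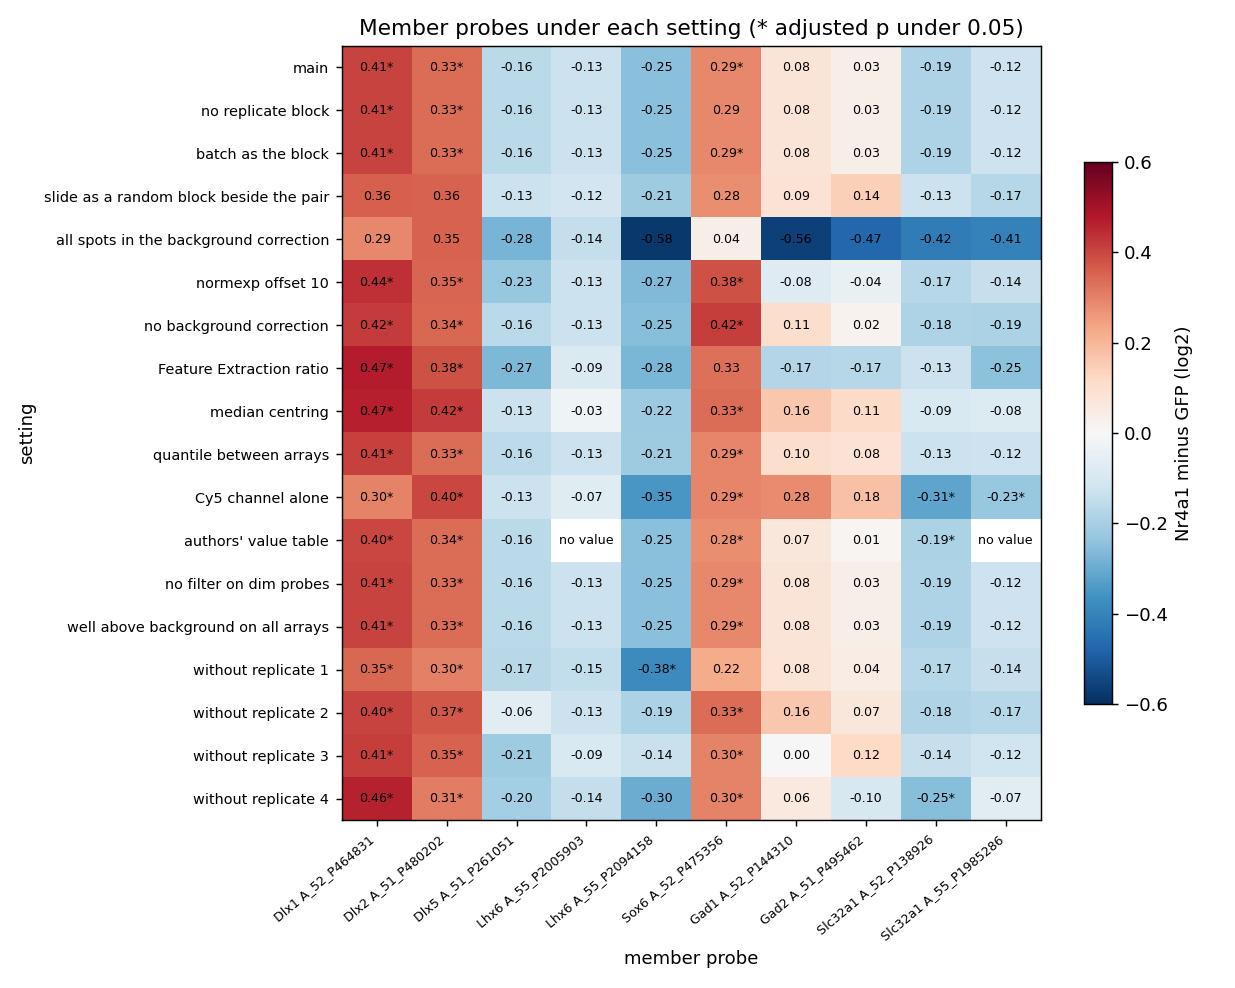
Difference between Nr4a1-labelled and GFP-labelled arrays on the log2 scale (colour and printed value) for the 10 tested probes (columns) under the reported setting, in the top row, and 17 others (rows). Stars mark an adjusted p under 0.05. White cells are probes not matched in the authors' value table, and the row named for all spots is the setting that kept spots with a non-uniform background. Dlx1 and Dlx2 are positive in every row and starred in all but the rows for slide as a random block and for non-uniform background spots kept, and the Gad1 and Gad2 columns change sign.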

How the data were processed

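Total RNA of 8 samples was measured on 8 Agilent 2-colour arrays on 3 slides. Signal intensities, local background intensities and the log10 ratio of Cy5 over Cy3 come from Agilent Feature Extraction, version 11.0.1.1 per the file headers. The authors' deposited value table holds log2 ratios for 24275 probes. No source used here states the scale, centring or direction of that table. Its columns correlated with the ratios computed here at 0.998 to 1.00, with medians of 0.024 to 0.031, so it was read as culture over reference. Feature Extraction and limma are the tools listed in the submitters' processing notes. Spots with a non-uniform background were left out, a choice that followed what an earlier analysis of these same data had found. It was thus not made blind to the data. These spots numbered 0 to 37 per array and most lay on Nr4a1-labelled replicate 2. Median signals were then corrected with normexp (offset 50, which shrinks folds of dim probes), normalised by loess (span 0.3) with controls at weight 0, and spots of a probe were averaged without outlier spots. Between 60.9% and 69.2% of spots were well above background in Cy5, 0 spots were saturated, and the number of arrays limits the precision. A probe was tested with Cy5 well above background on at least 4 of 8 arrays and 3 values per group. Accessions were named through RefSeq (GRCm38.p6), which matched 26581 probes and left 12848 without a symbol. Tests were two-sided and used limma 3.58.1 (R 4.3.3), with the pair given by the labels as a block, and it was tested on simulated data. For replicates 1 to 4, the 2 arrays of a pair had deviations from their group means that correlated at -0.12, 0.28, -0.02 and 0.43, so the block rests on the labels. Genes named outside the 9 are the 4 of smallest p in each list, further list genes past the threshold, and the closest by correlation. Other list genes given with values were chosen after these were seen, and some listed genes are not reported here by name. The 9 genes, the lists and the markers were chosen with earlier results of these data known. Alternatives covered the block, slide, background, normalisation, channel, filter, value table and each pair left out.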

Additional observations from a re-analysis of the deposited data

Results flagged for a closer look

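In each group of 4 arrays, the gap between the most extreme array and its nearest neighbour was divided by the group's range, and 9 of 100 groups checked passed the 95% critical value of Dixon's test, where chance gives about 1 in 20. Gad1 stood out on Nr4a1-labelled replicate 3, at 6.28 with the next array at 5.89 (gap 0.898 of the range). Gad2 stood out on Nr4a1-labelled replicate 4, the only array on slide 3, at 5.07 with the next at 4.85 (0.895). Nr4a1-labelled replicate 3 was also low for Dcx, at 2.09 with the next at 3.70 (0.860), and for Etv1, at -0.82 with the next at -0.58 (0.915). Lamp5 was low on Nr4a1-labelled replicate 2 (1.58, next 1.70; 0.897). GFP-labelled replicate 4 was low for Nrp2 (0.04, next 0.59; 0.871) and Bcl11b (1.26, next 1.51; 0.871) and high for Ackr3 (-0.31, next -0.51; 0.841). Neurod6 was high on GFP-labelled replicate 3 (6.92, next 6.81; 0.856).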

How the results depend on the processing

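Dlx1 and Dlx2 kept direction and call in 15 of 17 other settings each, at 0.29 to 0.47 and 0.30 to 0.42. When slide entered the paired model as a random block (consensus correlation 0.86), Dlx1 was 0.36, Dlx2 0.36 and Sox6 0.28, all uncalled, and when spots with a non-uniform background were kept 0.29, 0.35 and 0.036, all uncalled, so the count of called genes fell from 3 to 0 in both. Sox6 was uncalled without the replicate block (0.29) and in the scanner software's ratio (0.33). The block changed no other call of the 9 genes. Gad1 reversed with those spots kept (-0.56), offset 10 (-0.077) and the software's ratio (-0.17), and Gad2 likewise (-0.47, -0.043 and -0.17). The brighter Slc32a1 probe was called lower in Cy5 alone (-0.31) and on the authors' table (-0.19), giving a count of 1 lower gene, and the dimmer in Cy5 alone (-0.23). Leaving out 1 replicate at a time gave -0.21 to -0.06 for Dlx5, -0.38 to -0.14 for the second Lhx6 probe, 0.22 to 0.33 for Sox6, -0.0038 to 0.16 for Gad1, -0.10 to 0.12 for Gad2, -0.25 to -0.14 for the brighter and -0.17 to -0.07 for the dimmer Slc32a1 probe, 2 to 3 genes higher and 0 to 1 lower. Among listed genes, Neurod6 (0.039) and Neurog2 (-0.0045) reversed in the software's ratio, Npas3 (-0.20) and St18 (-0.0046) with those spots kept, and Sox13 (0.13) in Cy5 alone. Over all probes 3134 were higher and 3011 lower, against 9 and 5 with slide as a random block, 128 and 101 with those spots kept, 1661 and 1600 in the software's ratio, 2049 and 1993 without replicate 1, and 3947 and 1571 with median centring, where 71.5% of calls were rises against 51.0%. The cause of these changes was not tested. The Sox6 reference signal was well above background on 0 of 8 arrays.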
